A study of Mus musculus with 24 samples.

Results

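Lin28b, Igf2bp1, Igf2bp2, Igf2bp3, Hmga1, Hmga2 and Arid3a are 7 genes of RNA-binding and chromatin proteins that are known from fetal blood progenitors. They were taken by gene symbol from a table of 55487 Ensembl genes, and all 7 were among the 18931 genes with enough counts to be tested. Bulk RNA-seq was read from LSK cells (lineage-negative, Sca1-positive, KIT-positive), a sorted mouse population of blood stem cells and early progenitors. One arm came from Tet-On-ME mice, which carry an inducible MLL::ENL (ME), a fusion protein found in leukaemia that joins MLL (gene Kmt2a) to ENL (gene Mllt1), and the other from control mice. MLL::ENL was induced in culture and cells were kept in culture for 48 h, so no group is freshly isolated. The 6 groups were E16 ME, E16 control, P14 ME, P14 control, 8wk ME and 8wk control (embryonic day 16, postnatal day 14 and 8 weeks), with 4 libraries each. E16 cells were sorted from liver and P14 and 8wk cells from bone marrow, so age and organ cannot be told apart in any comparison with E16. The promoter that drives the transgene, the inducing agent, whether control cells received it, the strain and the sex of the mice, and whether a library is 1 animal or a pool are not given in the sources used here.

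LIN28B binds precursors of the let-7 microRNAs and keeps them from being processed, and let-7 in turn represses many mRNAs through short matches to its seed in their 3′ untranslated regions (UTRs). The Igf2bp genes encode 3 related proteins that bind mRNAs, among them m6A-modified ones, and change their stability and translation. HMGA1 and HMGA2 are AT-hook proteins that bind the minor groove of AT-rich DNA and alter chromatin, and ARID3A is an AT-rich-DNA-binding transcription factor with roles in B-lineage development. In mouse blood, Lin28b, Hmga2, Igf2bp2 and Arid3a have been described as parts of one fetal programme, in which LIN28B lowers let-7 and its targets stay high.

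All 7 genes carry at least 1 perfect let-7 seed match in their annotated 3′UTR, which is why the sequences are shown here. The mature sequences below are from RefSeq (build GRCm38.p6), 5′ to 3′, with the seed, bases 2 to 8, in capitals. The same seed stands in 12 entries of the let-7 family (10 names) and in 13 of the 1738 mature mouse miRNAs in that table.
let-7a: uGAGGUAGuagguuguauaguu
let-7c: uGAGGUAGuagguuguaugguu
let-7g: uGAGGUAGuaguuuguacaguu

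The sites below are the first match in the 3′UTR of each gene, with the bases that pair with the seed in capitals, and the coordinates (GRCm38, GENCODE M21) are those of the capitals. The motif searched was CTACCTC on the strand of the transcript, and a match is a description of the sequence, not a measured site. For every gene only the transcript with the longest annotated 3′UTR was searched.
Lin28b, chr10:45381023-45381029, minus strand: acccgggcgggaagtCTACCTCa
Igf2bp1, chr11:95961779-95961785, minus strand: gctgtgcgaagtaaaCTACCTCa
Igf2bp2, chr16:22059474-22059480, minus strand: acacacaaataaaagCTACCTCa
Igf2bp3, chr6:49086788-49086794, minus strand: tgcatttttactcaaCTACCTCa
Hmga1, chr17:27563292-27563298, plus strand: tcctctgttcacaaaCTACCTCt
Hmga2, chr10:120364225-120364231, minus strand: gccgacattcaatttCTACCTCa
Arid3a, chr10:79953910-79953916, plus strand: aaggcaagtttctttCTACCTCa

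The 7 genes held 17 such matches together. Lin28b, Igf2bp1 and Hmga2 held 4 each, Arid3a held 2, and Igf2bp2, Igf2bp3 and Hmga1 held 1 each. Of 21014 genes with an annotated 3′UTR, 9.03% held a match and 0.0571% held 4 or more. The 7 include known let-7 targets, so their matches beside such shares are a description and not a test of enrichment. The genes with 4 matches also have long 3′UTRs of 4445 bases (Lin28b), 6337 bases (Igf2bp1) and 3014 bases (Hmga2), against a median of 961 bases over all genes. Among genes with a 3′UTR within 20% of their own length, 0.236%, 0.355% and 0.134% held 4 or more matches, for Lin28b, Igf2bp1 and Hmga2 in that order. All shares at a similar length count the gene itself. For the genes with 1 match the share with a match at a similar length was 12.0% for Igf2bp2, 13.3% for Igf2bp3 and 8.07% for Hmga1, beside 9.03% over all genes, so a single match is not rare at these lengths. For Arid3a, 2.26% of genes of similar length held 2 or more matches. Mature let-7 was not measured by these libraries: 11 of the 12 let-7 hairpin genes in the table had no count in any library, and Mirlet7g had at most 2.

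**Figure D1:**
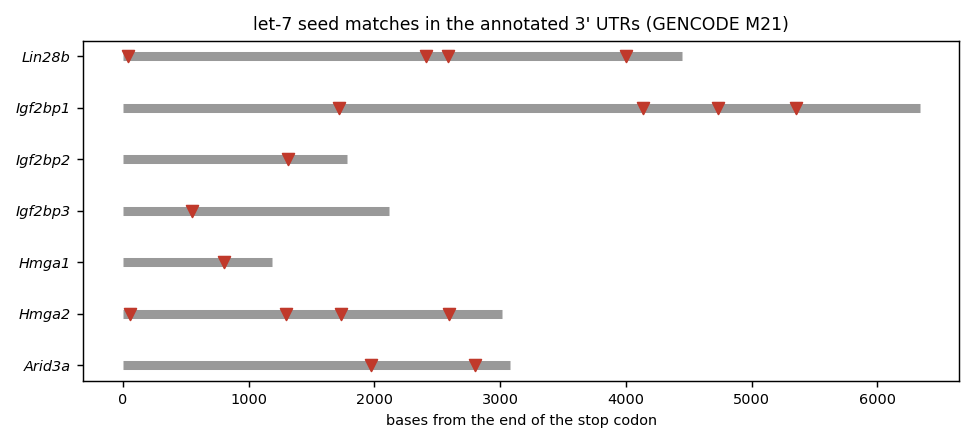
The annotated 3′UTR of each gene is drawn as a bar, in bases from the end of the stop codon, and each triangle is a let-7 seed match. Lin28b, Igf2bp1 and Hmga2 hold 4 matches each, and the first match of Lin28b and of Hmga2 lies 36 and 58 bases after the stop codon.

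The libraries held between 33.9 and 69.3 M counts (median 47.1 M). Kmt2a and Mllt1, the genes of the fusion, were higher in ME libraries at every age with no overlap between libraries, as the labels have it. The 5 LSK markers (Kit, Ly6a, Cd34, Flt3, Ptprc) were present in every group, though their levels differed between ages, most for Ly6a, the gene of Sca1. The hepatocyte marker Alb was at most 0.438 CPM in any library, also in cells from liver. The sum of 8 hepatocyte markers, most of it Trf, was higher at 8wk (103 to 191 CPM in ME libraries and 146 to 160 CPM in controls) than at E16 (at most 34.3 CPM in either arm), and 4 stromal markers summed to at most 3.85 CPM. Markers of maturing blood cells were present and differed between libraries. In 3 libraries (E16 ME replicate 4, 8wk ME replicate 4 and 8wk control replicate 1) they stood apart from their group, with sums of 6 neutrophil markers of 968, 1410 and 4137 CPM, against 3186 to 5473, 5012 to 5959 and 452 to 938 CPM in the other libraries of the same groups. These 3 were picked after the data were seen, and other libraries differed from their group as well. E16 control replicate 1 had a sum of 6 monocyte and macrophage markers of 1075 CPM, against 347 to 424 CPM in the other E16 controls. In replicate order, the P14 ME libraries had neutrophil sums of 2110, 1621, 527 and 229 CPM. Leaving out the 3 libraries therefore does not remove every such difference. In bulk RNA, fewer cells of a type and less RNA per cell cannot be told apart. The share of called genes that was higher in ME depends on the scaling: it was 61.1% at E16 and 57.5% at P14 with TMM, against 74.6% and 70.5% with library size alone. With a correction for GC content, added after the data were seen, it was 51.8% at E16 and 46.6% at P14.

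Lin28b (chr10:45376620-45486395, minus strand) was a fetal gene in both arms. It was at 53.3, 56.6, 53.9 and 33.3 CPM (counts scaled to library size with TMM factors) in E16 ME libraries, against 53.2, 53.0, 45.0 and 39.5 CPM in E16 controls. It was at 5.55, 5.14, 5.84 and 6.61 CPM in P14 ME libraries, against 10.9, 9.91, 8.58 and 7.46 CPM in P14 controls. The 8wk ME libraries had 0.631, 0.427, 0.237 and 0.125 CPM, against 1.41, 1.47, 1.61 and 0.987 CPM in 8wk controls. The arms overlapped at E16, while every ME library lay below every control library at P14 and at 8wk. The 8wk ME values rest on 6 to 28 counts per library. A gene was called where edgeR's quasi-likelihood test across all tested genes gave it an adjusted p (Benjamini-Hochberg) under 0.05. Lin28b was lower in 8wk than in E16 cells by 139-fold in ME cells (log2 fold change -7.12 ± 0.33, SE, edgeR adjusted p = 7.14e-13) and by 34.7-fold in controls (-5.12 ± 0.29, adjusted p = 3.19e-11), and no 8wk library reached any E16 library. Its 6 groups followed one order of age, and in that order only the 2 E16 arms overlapped.

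Igf2bp1 (chr11:95957163-96005940, minus strand) was near the detection limit after E16. It was at 26.4, 24.4, 31.0 and 18.6 CPM in E16 ME libraries, against 19.5, 20.9, 19.4 and 16.6 CPM in E16 controls. It was at 0.320, 0.360, 0.238 and 0.530 CPM in P14 ME libraries, against 0.193, 0.150, 0.0903 and 0.169 CPM in P14 controls, that is 12 to 23 counts against 6 to 10 counts. The 8wk ME libraries had 0.316, 0.356, 0.257 and 0.230 CPM, against 0.0698, 0.236, 0.244 and 0.172 CPM in 8wk controls. The E16 libraries lay far above all others, the P14 arms did not overlap, and the 8wk arms did. Igf2bp1 was 69.3-fold lower in P14 than in E16 ME cells (-6.11 ± 0.30, adjusted p = 9.40e-12) and 127-fold lower in P14 than in E16 control cells (-6.99 ± 0.32, adjusted p = 1.93e-12). Between P14 and 8wk its log2 difference was -0.32 in ME cells (adjusted p = 0.575, edgeR) and 0.23 in controls (0.755), so no further step could be shown at these counts.

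Igf2bp2 (chr16:22059009-22163299, minus strand) was lower at each later age and did not separate the arms. It was at 61.7, 64.6, 83.6 and 81.8 CPM in E16 ME libraries, against 78.7, 78.6, 61.6 and 66.6 CPM in E16 controls. It was at 15.9, 16.0, 18.8 and 21.4 CPM in P14 ME libraries, against 18.3, 16.9, 28.4 and 27.1 CPM in P14 controls. At 8wk it was at 2.41, 3.56, 5.99 and 3.95 CPM in ME libraries, against 3.33, 4.46, 3.72 and 4.42 CPM in 8wk controls. The ME and control libraries overlapped at all 3 ages, and the ages did not overlap. It fell by 4.19 ± 0.24 on the log2 scale in 8wk against E16 ME cells (adjusted p = 2.55e-11, edgeR), an 18.3-fold difference, and by 4.17 ± 0.24 in controls (3.19e-11), an 18.0-fold difference.

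Igf2bp3 (chr6:49085223-49214957, minus strand) stayed high at P14 and was low at 8wk. It was at 121, 118, 127 and 110 CPM in E16 ME libraries, against 141, 136, 135 and 123 CPM in E16 controls. It was at 72.5, 68.7, 58.6 and 45.0 CPM in P14 ME libraries, against 64.0, 71.4, 71.4 and 71.5 CPM in P14 controls. The 8wk ME libraries had 2.17, 1.90, 2.00 and 0.920 CPM, against 0.781, 1.10, 0.803 and 1.29 CPM in 8wk controls. The ages did not overlap, and at 8wk ME replicate 4, 1 of the 3 libraries that stood apart, lay inside the control range while the other 3 ME libraries lay above it. In controls the gene was 1.92-fold lower in P14 than in E16 cells (-0.94 ± 0.18, adjusted p = 6.33e-04) and 70.8-fold lower in 8wk than in P14 cells (-6.15 ± 0.23, adjusted p = 1.78e-14). The 3′ end of Igf2bp3 overlaps Malsu1 on the other strand, and without the strand setting reads there cannot be assigned with certainty.

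Hmga1 (chr17:27556497-27563674, plus strand) had the highest level of the 7 per kilobase of exon and the smallest difference between 8wk and E16. It was at 486, 444, 535 and 527 CPM in E16 ME libraries, against 604, 560, 516 and 536 CPM in E16 controls. It was at 477, 407, 338 and 311 CPM in P14 ME libraries, against 403, 347, 454 and 274 CPM in P14 controls. At 8wk it was at 139, 155, 142 and 136 CPM in ME libraries, against 164, 162, 120 and 187 CPM in 8wk controls. The arms overlapped at every age, and the P14 ME libraries overlapped the E16 ME libraries. Hmga1 was 3.48-fold lower in 8wk than in E16 ME cells (-1.80 ± 0.15, adjusted p = 1.92e-08) and 3.49-fold lower in controls (-1.81 ± 0.15, 1.45e-08). The near-identical copy Hmga1b took 3.05% to 7.56% of the summed counts of both, and summing them changed the call of none of the 12 comparisons.

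Hmga2 (chr10:120361275-120476469, minus strand), the best-known let-7 target of the 7, was at 104, 89.3, 88.9 and 83.8 CPM in E16 ME libraries, against 70.3, 67.6, 61.5 and 70.7 CPM in E16 controls. It was at 27.7, 28.6, 27.6 and 30.3 CPM in P14 ME libraries, against 26.1, 27.3, 24.3 and 18.4 CPM in P14 controls. At 8wk the gene was at 3.56, 5.17, 4.39 and 6.75 CPM in ME libraries, against 8.73, 9.96, 8.07 and 6.01 CPM in 8wk controls. Every ME library lay above every control library at E16 and P14, whereas at 8wk 3 of 4 ME libraries lay below all controls. Hmga2 was 18.4-fold lower in 8wk than in E16 ME cells (-4.20 ± 0.18, adjusted p = 2.79e-13) and 8.24-fold lower in controls (-3.04 ± 0.17, 3.19e-11). Its locus overlaps the antisense transcripts 1700006J14Rik and 9230105E05Rik, whose reads cannot be told from those of Hmga2 without the strand setting.

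Arid3a (chr10:79927043-79955018, plus strand) was at 43.8, 53.4, 66.6 and 53.3 CPM in E16 ME libraries, against 76.3, 69.2, 57.1 and 61.6 CPM in E16 controls. It was at 16.6, 11.6, 10.3 and 7.97 CPM in P14 ME libraries, against 14.0, 10.3, 13.6 and 6.89 CPM in P14 controls. At 8wk the gene was at 11.0, 9.81, 7.75 and 8.30 CPM in ME libraries, against 8.12, 4.59, 4.52 and 7.06 CPM in 8wk controls. The E16 libraries lay above all others, and the libraries of P14 and 8wk overlapped in both arms. Arid3a was 5.90-fold lower in P14 than in E16 controls (-2.56 ± 0.24, adjusted p = 1.62e-07), and its further difference between 8wk and P14 controls was -0.88 ± 0.24 (adjusted p = 0.0183). That second call did not hold when P14 control replicate 3 (-0.77, adjusted p = 0.0763), 8wk control replicate 2 (-0.77, 0.0645) or 8wk control replicate 3 (-0.79, 0.0685) was left out of the edgeR fit.

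**Figure D2:**
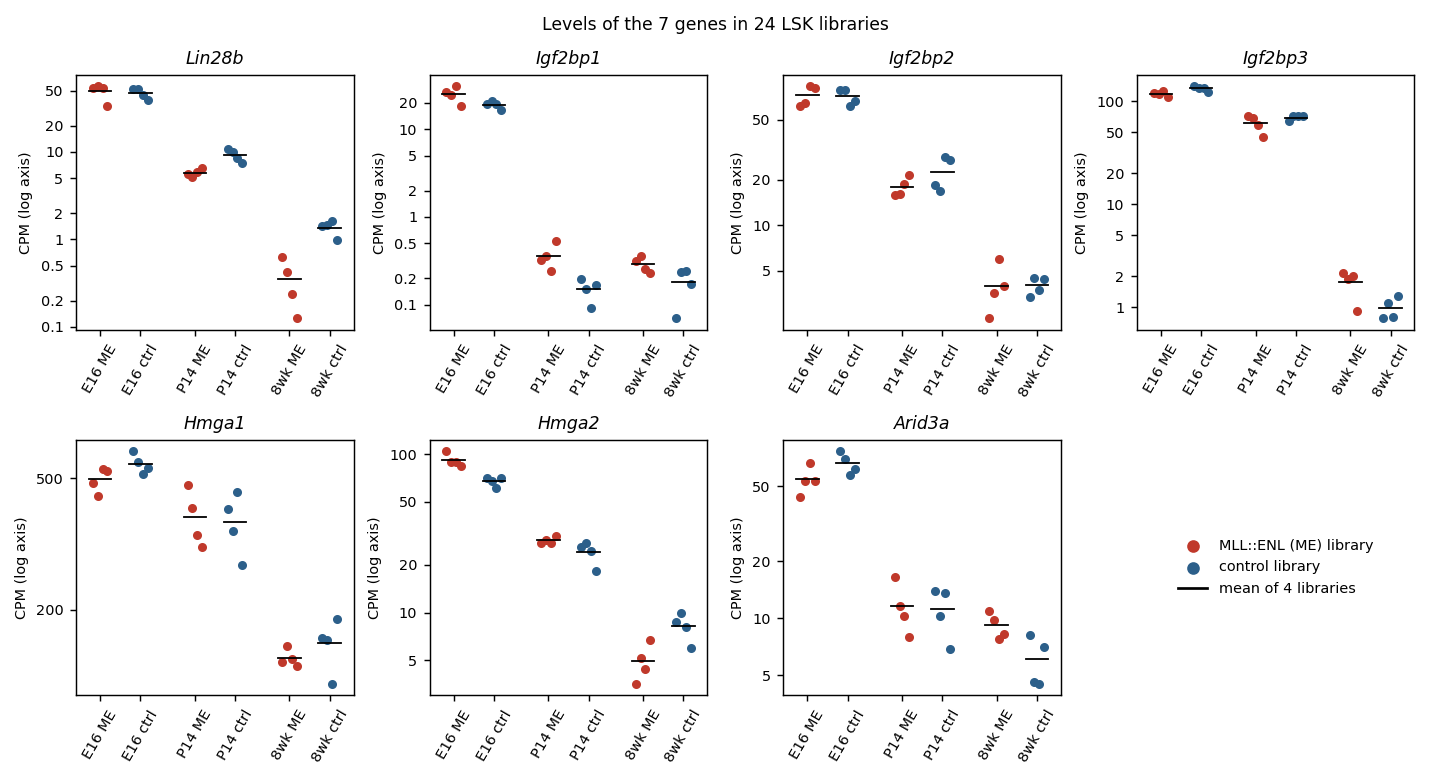
Each panel gives 1 gene, with CPM on a log axis for each of 24 libraries, ME libraries in red left of control libraries in blue at each age, and a black line for the mean of 4. Lin28b at 8wk is the clearest split of the arms, with 0.125 to 0.631 CPM in ME libraries and 0.987 to 1.61 CPM in controls.

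In ME cells, 6 of 7 genes were called lower at P14 than at E16, where 4.59% of all tested genes were, all 7 at 8wk than at E16 (7.71% of tested genes), and 5 of 7 at 8wk than at P14 (5.22%). In controls, all 7 genes were called lower at P14 than at E16 (7.51%) and at 8wk than at E16 (10.8%), and 6 of 7, all but Igf2bp1, at 8wk than at P14 (5.58%). The exceptions in ME cells were Hmga1 at P14 against E16 (-0.38 ± 0.14, adjusted p = 0.116) and Igf2bp1 and Arid3a at 8wk against P14 (-0.32 and -0.33). Hmga1 passed the test once P14 ME replicate 1 was left out (-0.50, adjusted p = 0.0397, edgeR). Every 8wk library lay below every E16 library for all 7 genes in both arms, as for 1783 of 18931 tested genes in ME cells and 2483 in controls. At P14 against E16 this held for 6 of 7 genes in ME cells, beside 1345 tested genes, and for all 7 in controls, beside 2394. At 8wk against P14 it held for 5 of 7 in each arm, beside 1517 tested genes in ME cells and 1557 in controls. The median log2 fold change of the 7 genes at 8wk against E16 was -4.20 in ME cells and -4.17 in controls, beside -0.03 and 0.05 over all tested genes. The genes were chosen as known fetal genes, so their common direction is a description.

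Markers of other cell types moved with age as well. The summed CPM of 9 erythroid markers ran from 60.1 to 169 in 8wk ME libraries and from 81.4 to 192 in 8wk controls, against 324 to 1445 in E16 ME libraries and 862 to 1437 in E16 controls, with Hbb-bs the highest of them in controls at E16 and no marker at 0 in all libraries of a group. The globin genes and Alas2 made up most of these sums, while Ermap averaged 1.90 CPM in 8wk ME cells and 1.82 CPM in 8wk controls, against 0.906 CPM in E16 ME cells and 0.816 CPM in E16 controls. The sum of 6 neutrophil markers, all detected at both ages, ran from 1410 to 5959 CPM in 8wk ME libraries, against 968 to 5473 CPM in E16 ME libraries, and from 452 to 4137 CPM in 8wk controls, against 3522 to 7195 CPM in E16 controls. Of the LSK markers, Ly6a averaged 660, 85.5 and 140 CPM in controls at E16, P14 and 8wk, and 530, 113 and 292 CPM in ME cells. In controls at the same ages Kit averaged 465, 603 and 487 CPM and Cd34 1001, 1410 and 1123 CPM. Flt3 averaged 304, 408 and 207 CPM and Ptprc 186, 180 and 219 CPM in these controls. The part of all these markers in the age differences was not tested. Without the 3 libraries that stood apart, the counts of members called between ages were the same in all 6 age comparisons. The share of all tested genes called ran from 13.6% to 28.3% in these fits, against 9.19% to 23.3% with all libraries.

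The genes differed in when they fell. Of the whole log2 difference between 8wk and E16, the step between E16 and P14 held 95.1% in ME cells and 103% in controls for Igf2bp1, and 86.9% in ME cells and 74.4% in controls for Arid3a. For 3 genes the fall was spread over both steps. The first step held 48.0% in ME cells and 39.7% in controls for Igf2bp2, 43.4% in ME cells and 46.3% in controls for Lin28b, and 40.0% in ME cells and 49.0% in controls for Hmga2. For Hmga1 (21.0% in ME cells, 32.3% in controls) and Igf2bp3 (15.8% in ME cells, 13.3% in controls) most of the fall came after P14. The genes at the ends of the order were the same in both arms, and differences between genes in these shares were not tested.

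**Figure D3:**
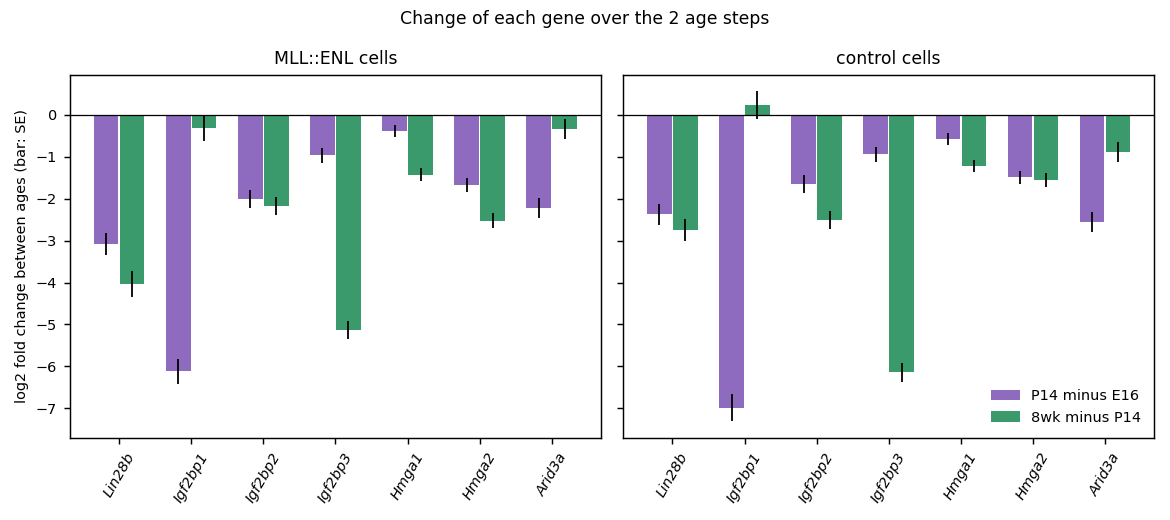
Bars give the log2 fold change of each gene for P14 minus E16 (purple) and 8wk minus P14 (green), in ME cells on the left and control cells on the right, with error bars of 1 SE from edgeR. Igf2bp1 has nearly all of its fall in the first step (-6.11 in ME cells, -6.99 in controls) and Igf2bp3 nearly all in the second (-5.13 in ME cells, -6.15 in controls).

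The uneven timing changed the makeup of the Igf2bp family. On CPM per kilobase of exon, which makes levels of different genes comparable, Igf2bp3 held 54.1% ± 3.2 of the family sum in E16 ME cells and 58.6% ± 2.1 in E16 controls (SD, n = 4 each). At P14 it held 74.6% ± 6.9 in ME cells and 73.7% ± 4.6 in controls. At 8wk Igf2bp2 was the main member, with 67.7% ± 12.2 in ME cells and 79.5% ± 1.8 in controls, and Igf2bp3 held 28.3% ± 11.2 and 17.8% ± 2.0, in the same order. Igf2bp1 held 9.55% ± 1.57 in E16 ME cells and 7.05% ± 0.43 in E16 controls, and at most 4.03% on average in any later group. Across the 7 genes Hmga1 was highest per kilobase in every group, at 234 CPM per kb in E16 ME and 261 in E16 controls and at 67.3 in 8wk ME and 74.6 in 8wk controls. The next was Igf2bp3 at E16 (14.6 in ME, 16.4 in controls), and in 8wk cells Arid3a in ME (1.65) and Hmga2 in controls (1.21).

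**Figure D4:**
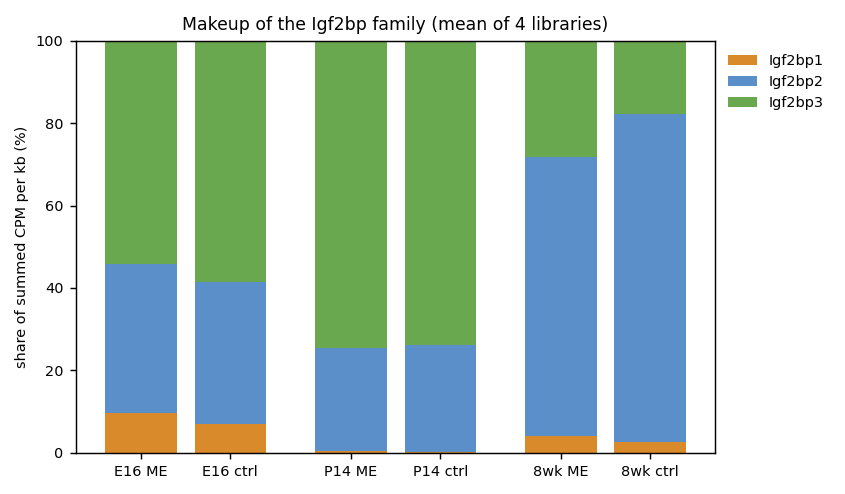
Stacked bars give the mean share (n = 4 libraries) of Igf2bp1, Igf2bp2 and Igf2bp3 in their summed CPM per kb of exon, in percent, for the 6 groups, ME left of control at each age. Igf2bp3 is the largest share at E16 and P14 and Igf2bp2 at 8wk, with 67.7% in ME cells and 79.5% in controls.

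Whether MLL::ENL shifts these genes was asked at each age. At E16 none of the 7 passed the test, where 21.8% of all tested genes were called. Of the 7, 1 had an unadjusted p under 0.05 by edgeR, as had 6422 of 18931 tested genes. DESeq2 called 1 of the 7, where it called 25.0% of all tested genes. The gene nearest to a call was Hmga2, whose 4 ME libraries lay above all controls, as did 14.5% of tested genes (log2 fold change 0.44 ± 0.16, edgeR adjusted p = 0.0534, DESeq2 adjusted p = 0.0329). Lin28b averaged 49.3 ± 10.7 CPM in E16 ME cells and 47.6 ± 6.7 CPM in E16 controls (SD, n = 4 each), and the 95% interval of its log2 fold change ran from -0.45 to 0.55. Igf2bp1 averaged 25.1 ± 5.2 CPM in ME cells and 19.1 ± 1.8 CPM in controls (0.39 ± 0.23, edgeR adjusted p = 0.239). At this age the sum of 5 megakaryocyte markers was 43.7 to 69.9 CPM in ME libraries and 179 to 450 CPM in controls, and that of 7 B-lineage markers 71.6 to 188 CPM in ME libraries and 55.7 to 70.1 CPM in controls. Their part in the E16 values was not tested.

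At P14, Igf2bp1 was called higher in ME cells, against 22.0% of all tested genes called and 12.7% called higher (2.40-fold, 1.27 ± 0.32, edgeR adjusted p = 0.00577). Its mean was 0.362 CPM in P14 ME cells and 0.151 CPM in P14 controls, both far under its level at E16. The call was lost with limma-voom (adjusted p = 0.0836) and in a fit of the P14 libraries alone (edgeR adjusted p = 0.0531). Lin28b had every ME library below every control library, as 12.4% of tested genes did, and averaged 5.78 ± 0.62 CPM in ME cells and 9.22 ± 1.51 CPM in controls. Its log2 fold change was -0.67 ± 0.25 with an edgeR adjusted p of 0.0533, just short of the threshold. Replicate numbers deviated together between the P14 arms, and with the replicate number as a block the value was -0.63 with an edgeR adjusted p of 0.0350, so that 2 of 7 genes were called, beside 22.9% of all tested genes. Hmga2 lay above all controls, as 14.1% of tested genes did, with a log2 fold change of 0.25 (edgeR adjusted p = 0.294). The sum of 4 endothelial markers was 62.8 to 70.0 CPM in P14 ME libraries and 48.5 to 61.6 CPM in P14 controls. Of these, Emcn averaged 22.2 CPM in ME cells and 11.1 CPM in controls, and Kdr 3.07 and 1.68 CPM. Pecam1 (40.9 and 42.2 CPM) and Cdh5 (0.0200 and 0.150 CPM) were lower on average in ME cells. For 7 B-lineage markers the sum was 326, 154, 46.2 and 38.4 CPM in P14 ME libraries, against 39.9 to 44.1 CPM in P14 controls. The part of these markers in the P14 values was not tested.

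At 8wk, 3 of the 7 genes were called, against 28.5% of all tested genes. Lin28b was 3.88-fold lower in ME cells (-1.96 ± 0.30, edgeR adjusted p = 6.81e-05), with all 4 ME libraries below all controls, as in 9.04% of tested genes. It remained called when any 1 of the 8 libraries was left out, with log2 fold changes from -2.39 to -1.67, and was -1.66 without the 3 libraries that stood apart (edgeR adjusted p = 6.85e-05). Hmga2 was 1.65-fold lower in ME cells (-0.72 ± 0.17, edgeR adjusted p = 0.00269) and Igf2bp3 1.77-fold higher (0.83 ± 0.21, edgeR adjusted p = 0.00496), each with 1 ME library inside the control range. In a fit of the 8wk libraries alone, Lin28b remained called (-1.91, edgeR adjusted p = 0.0188), while Hmga2 (-0.68, 0.0838) and Igf2bp3 (0.85, 0.0898) did not.

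Arid3a averaged 9.20 ± 1.46 CPM in 8wk ME cells and 6.07 ± 1.81 CPM in 8wk controls (0.60 ± 0.24, edgeR adjusted p = 0.0616). It passed without 8wk control replicate 1 (0.77, edgeR adjusted p = 0.0206). Igf2bp1 averaged 0.290 CPM in ME cells and 0.180 CPM in controls (0.72 ± 0.32, edgeR adjusted p = 0.0997), Igf2bp2 3.98 CPM in each arm and Hmga1 143 CPM in ME cells and 158 CPM in controls. For Igf2bp2 the 95% interval of the log2 fold change ran from -0.44 to 0.45 and for Hmga1 from -0.45 to 0.15. Hmga1 is the most GC-rich of the 7 (61.4% in its longest transcript, against a median of 49.2% over tested genes). With a correction for GC content, added after the data were seen, it was called lower in ME cells at E16 (-0.53), P14 (-0.55) and 8wk (-0.62), where the uncorrected log2 fold changes were -0.15, 0.05 and -0.15 and not called.

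The sum of 6 neutrophil markers, all detected in both arms, was 5959, 5532, 5012 and 1410 CPM in 8wk ME libraries, against 4137, 672, 452 and 938 CPM in 8wk controls. The sum of the 5 LSK markers was also higher, at 3035 to 3689 CPM in 8wk ME libraries, against 2066 to 2361 CPM in 8wk controls. Most of that gap was Kit, with a mean of 1463 CPM in 8wk ME cells and 487 CPM in 8wk controls, while Cd34 averaged 1091 and 1123 CPM and Ptprc 219.8 and 219.2 CPM in the same order. Separate ranges were also seen for the sum of 7 B-lineage markers (73.9 to 98.4 CPM in 8wk ME libraries, 37.8 to 67.7 CPM in 8wk controls) and of 4 endothelial markers (70.9 to 105 CPM and 60.9 to 65.8 CPM), of which Pecam1 was the highest. The part of these shifts in the 8wk differences was not tested beyond leaving out the libraries named above.

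**Figure D5:**
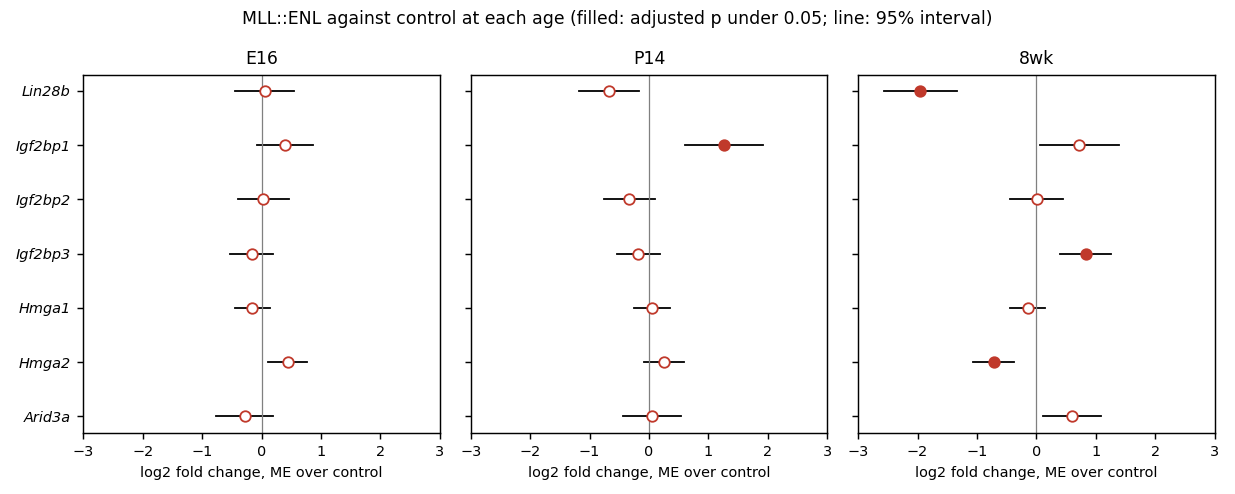
Points give the log2 fold change of ME over control for each gene at E16, P14 and 8wk, lines the 95% interval from edgeR, and filled points an adjusted p under 0.05. No point is filled at E16, Igf2bp1 (1.27) is filled at P14, and Lin28b (-1.96), Igf2bp3 (0.83) and Hmga2 (-0.72) are filled at 8wk.

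The difference between ages in the MLL::ENL effect was itself tested. Between 8wk and E16 it was called for 2 of 7 genes, against 0.850% of all tested genes. The log2 effect on Lin28b was -1.96 at 8wk and 0.05 at E16, a difference of -2.01 ± 0.38 (edgeR adjusted p = 0.0144). For Hmga2 it was -0.72 at 8wk and 0.44 at E16, a difference of -1.16 ± 0.23 (edgeR adjusted p = 0.0174), so the estimates had opposite signs at these ages. Both calls were lost in a fit of the E16 and 8wk groups alone, for Lin28b (-1.98, edgeR adjusted p = 0.0621) and for Hmga2 (-1.13, 0.0778). The Hmga2 call was also lost with a covariate for Y-linked expression (-1.08, edgeR adjusted p = 0.0541) and without 8wk control replicate 2 (-1.06, 0.0540). Igf2bp3 had a difference of 0.99 ± 0.27 that did not pass (edgeR adjusted p = 0.0739) and that passed without 8wk ME replicate 4 (1.20, 0.00304).

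Between 8wk and P14 no member was called by edgeR, where 0.301% of all tested genes were. Of the 7, 3 had an unadjusted p under 0.05 by edgeR, as had 2202 of 18931 tested genes. DESeq2 called 3 of the 7, where it called 1.57% of all tested genes. The differences were -1.29 ± 0.38 for Lin28b (edgeR adjusted p = 0.177), -0.97 ± 0.23 for Hmga2 (0.0753) and 1.01 ± 0.27 for Igf2bp3 (0.121). Without 8wk ME replicate 4, Hmga2 (-1.16, edgeR adjusted p = 0.00886) and Igf2bp3 (1.22, 0.00527) passed, and Hmga2 also passed without 8wk control replicate 1 (-0.94, 0.0474) or replicate 4 (-1.09, 0.0431). Between P14 and E16 no member was called by edgeR or DESeq2, where 0.0211% of all tested genes were called by edgeR and 0.153% by DESeq2. An unadjusted p under 0.05 by edgeR was seen for 2 of the 7 and for 888 of 18931 tested genes. The 3 differences share libraries and are not independent of each other.

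Of 18 other genes of the LIN28 and let-7 pathway, 0 were called higher and 1 lower in 8wk against E16 ME cells, where 15.2% of all tested genes were called. In 8wk against E16 controls 1 was higher and 4 were lower, where 23.3% of all tested genes were called. The gene lower in ME cells was Tarbp2, a DICER partner (-0.85 ± 0.11, edgeR adjusted p = 1.49e-05). The lower ones in controls included Tarbp2 (-0.86 ± 0.11, edgeR adjusted p = 7.10e-06) and Dicer1 (-0.77 ± 0.24, 0.0245), and the higher one was Prkra, another DICER partner (0.53 ± 0.11). Lin28a, the paralog of Lin28b, was low throughout, with a mean of 0.859 CPM in E16 ME cells and 1.08 CPM in E16 controls, and was called lower in P14 against E16 controls (-6.17 ± 1.32, edgeR adjusted p = 0.00239). In ME against control cells, 4 of the 18 were higher and 4 lower at E16, 3 and 4 at P14, and 4 and 4 at 8wk, beside 21.8%, 22.0% and 28.5% of all tested genes called in either direction at these ages. Ago2, an Argonaute that carries miRNAs, was higher in ME at all 3 ages (0.66, 0.97 and 1.13), and Hnrnpa1, an RNA-binding protein that also binds let-7 precursors, was lower at all 3 (-0.56, -0.67 and -0.56). The median of the list in ME against control at 8wk was -0.04, beside -0.02 over all tested genes.

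Of the let-7 host and hairpin genes only Mir99ahg, the host transcript of the mir-99a and let-7c cluster, had enough counts. It averaged 4.60 CPM in E16 ME cells and 1.27 CPM in E16 controls (1.85 ± 0.26, edgeR adjusted p = 3.58e-05). At P14 it averaged 6.85 CPM in ME cells and 2.93 CPM in controls (1.22 ± 0.25, edgeR adjusted p = 0.00128). At 8wk it averaged 4.31 CPM in ME cells and 3.07 CPM in controls, and the log2 fold change of 0.49 was not called. In ME cells its log2 fold changes against E16 were 0.57 at P14 and -0.09 at 8wk, neither called, and in controls it was higher at P14 (1.20) and at 8wk (1.27) than at E16. A host transcript does not measure the mature miRNA.

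Of 27 other known let-7 targets, 2 were called higher and 8 lower in 8wk against E16 ME cells, and 1 higher and 8 lower in 8wk against E16 controls, beside 15.2% and 23.3% of all tested genes called in either direction. Among the lower ones were Arid3b, the close relative of Arid3a (-1.17 ± 0.19 in ME cells, -1.44 ± 0.19 in controls), the zinc-finger gene Plagl2 (-1.44 ± 0.20 and -1.28 ± 0.20) and Mycn (-1.54 ± 0.16 and -0.92 ± 0.15), in the same order of arms. The median of the list was -0.17 in ME cells and -0.33 in controls, beside -0.03 and 0.05 over all tested genes. In ME against control cells 6 were higher and 6 lower at E16, 6 and 4 at P14, and 7 and 3 at 8wk, out of 27, beside the same shares of 21.8%, 22.0% and 28.5% of all tested genes. The phosphatase gene Cdc25a (1.67, 1.72 and 1.60) was higher at all 3 ages, while Myc was lower (-0.81, -0.55 and -0.68).

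Of 16 m6A factors, the writers, erasers and readers of the mark that IGF2BP proteins bind, 6 were higher and 2 lower in ME cells at E16, and 4 higher and 2 lower at P14 and again at 8wk, beside 21.8%, 22.0% and 28.5% of all tested genes called at the 3 ages. The reader Ythdc1 (1.43, 1.49 and 1.36), the demethylase gene Alkbh5 (2.18, 2.45 and 2.65) and the reader Ythdf1 (2.37, 2.56 and 2.98) were higher at all 3 ages. With age, 0 were called in 8wk against E16 ME cells, and 1 was higher and 0 lower in 8wk against E16 controls, with 16 tested, beside 15.2% and 23.3% of all tested genes called. Of 16 relatives of the Hmga and Arid3 genes, 0 were higher and 5 lower in ME cells at 8wk, beside 28.5% of all tested genes called, among them Hmgb3 (-0.71 ± 0.12, edgeR adjusted p = 1.56e-04) and Hmgn5 (-1.08 ± 0.22). In 8wk against E16 ME cells 2 of these relatives were higher and 1 was lower, and in controls 5 were higher and 1 was lower, beside 15.2% and 23.3% of all tested genes called. The lower one was Arid3b in both arms.

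Of 14 other fetal progenitor genes with enough counts, 7 were lower and 1 higher in 8wk against E16 ME cells, and 7 lower and 0 higher in 8wk against E16 controls, beside the same 15.2% and 23.3% of all tested genes. The imprinted gene Dlk1 averaged 6.00 CPM in 8wk ME cells and 22.4 CPM in 8wk controls, against 158 CPM in E16 ME cells and 340 CPM in E16 controls, and was lower in ME at all 3 ages (-1.10, -2.45 and -1.90). Bcl11a, a repressor of fetal globin, was higher in ME cells at P14 (0.66 ± 0.15) and 8wk (0.81 ± 0.15). Sox17 and Igf2, with at most 8 and 6 counts in a library, were not tested. None of the members of these lists was called in a difference of the MLL::ENL effect between ages, where 0.0211% (P14 minus E16), 0.850% (8wk minus E16) and 0.301% (8wk minus P14) of all tested genes were. No sex-linked gene of the 5 checked was called in any of the 12 comparisons, though their levels show that libraries of both sexes stand within groups.

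Over the 24 libraries the log2 CPM of the 7 genes correlated pairwise with Pearson r between 0.61 and 0.96. After the group means were taken out, r ran from -0.61 (Igf2bp3 with Hmga2) to 0.81 (Hmga1 with Arid3a), and Lin28b with Hmga2 was at -0.19. Among genes outside the 7, the one whose log2 CPM was most like that of Igf2bp2 was Hif3a (r = 0.974), a hypoxia-inducible factor subunit, which was also the most alike of them for Lin28b (0.938) and Hmga2 (0.956). Hif3a averaged 21.7 CPM in E16 ME cells and 22.5 CPM in E16 controls, 6.39 and 7.03 CPM at P14, and 1.59 and 1.39 CPM at 8wk, in the same order. For Igf2bp1 the most alike outside the 7 were Cacnb3 (0.965), a calcium channel subunit, and Ccr7 (0.965), a chemokine receptor of dendritic cells and lymphocytes, and Ccr7 was also the most alike for Arid3a (0.962). Outside the 7, Igf2bp3 was most like B3gnt7 (0.935) and Hmga1 most like Dcakd (0.963). These correlations describe 24 libraries that share 6 groups, and no test was made of them.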

How the data were processed

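The authors deposited 1 table of raw, unnormalised counts, with a line per Ensembl gene and a column per library. Reads were aligned with STAR 2.7.9a to GRCm38 and counted with featureCounts 2.0.3, per the submitters' processing notes; annotation release and strand setting are not given in the sources used here. A median of 63.6% of counts from 1 to 20 were even, as when both mates are counted. Of 55774 lines, 55487 identifiers were kept; 168 stood on several lines. Groups came from the sample titles. Whether replicates were separate animals is not stated, so p-values may in part measure technical spread. Libraries of both sexes stood within groups, so not all replicates can come from 1 animal, but the number of animals is not given.

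All 24 libraries were fitted together with edgeR 4.0.16 in R 4.3.3 (TMM, filterByExpr with minimum count 10, robust quasi-likelihood test, 1 mean per group), with 12 contrasts and Benjamini-Hochberg adjustment over 18931 genes at 0.05. CPM use TMM-scaled library sizes. Tested on simulated data for the 8wk comparison (18505 genes), the fit called 47 of 107 genes with a 2-fold change, 66 of 86 with a 4-fold change and 5 of 18312 with none. In the simulation each gene had the same overall mean in every group, apart from the changed genes in 8wk ME libraries. In the real comparison 28.5% of tested genes were called, and genes such as Lin28b lie far below their overall mean at 8wk. These rates therefore do not carry over to it. Alternatives used limma 3.58.1, DESeq2 1.42.0, other scalings, filters and covariates, and left out libraries. Same-numbered libraries deviated together (every r over 0.1) between the P14 arms and between E16 and 8wk ME cells only; where the pairing comes from is not stated. The 7 genes and all gene lists were chosen with earlier results of these data known. From each list the text could name up to 3 called members with the smallest adjusted p per comparison, and for each of the 7 genes the 3 most correlated others. GENCODE M21 gave coordinates, 3′UTRs and GC content.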

Additional observations from a re-analysis of the deposited data

Results flagged for a closer look

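In the E16 ME group, Lin28b in replicate 4 was far from the other 3 libraries, at 33.3 CPM against 53.3 to 56.6 CPM. This is 1 of the libraries with other levels of blood cell markers. In the P14 control group, Igf2bp3 in replicate 1 was at 64.0 CPM while the other 3 libraries lay within 71.4 to 71.5 CPM, so a modest gap stood out against a very narrow spread. With 42 such checks run, chance alone flags about 1 in 20.

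The MLL::ENL effect differed between 8wk and E16 cells, by the test of the difference itself, for Lin28b (-2.01 on the log2 scale) and for Hmga2 (-1.16). In a fit of the groups at these ages alone neither difference passed (edgeR adjusted p = 0.0621 for Lin28b and 0.0778 for Hmga2), and that of Hmga2 did not pass with a Y-linked covariate (0.0541) or without 8wk control replicate 2 (0.0540).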

How the results depend on the processing

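Of 1776 values of single genes under the alternatives, 1727 kept the sign of the reported value and 48 changed sign while called in neither fit. The remaining 1 was Hmga1 in ME against control cells at P14, whose log2 fold change was -0.55 with the GC correction (edgeR adjusted p = 1.51e-04) and 0.05 without. Hmga1 is rich in GC, and whether the correction removes or adds a difference was not tested.

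Percentages in brackets give the share of all tested genes called in the same fit. The number of the 7 genes called in ME against control cells at E16 was 0 (21.8%) and became 1 with library size only (20.8%), DESeq2 (25.0%), limma-voom (20.3%), a 1 CPM filter (28.2%), only the E16 groups (23.0%), the GC correction (24.2%), or without the 3 libraries that stood apart (19.1%). At P14 it was 1 (22.0%) and became 2 with DESeq2 (25.6%), the replicate block (22.9%), a Y-linked covariate (20.8%), or without the 3 libraries (25.7%), and 3 with the GC correction (24.8%). At 8wk it was 3 (28.5%) and became 1 with only the 8wk groups (17.2%), 2 with limma-voom (27.3%), and 4 with DESeq2 (30.8%), the replicate block (29.5%), the GC correction (29.2%), or without the 3 libraries (34.9%). For the difference of 8wk and E16 effects it was 2 (0.850%) and became 0 with only those groups (0.302%) and 1 with the Y-linked covariate (0.312%). For 8wk minus P14 it was 0 (0.301%) and became 3 with DESeq2 (1.57%) and 2 without the 3 libraries (5.24%). Over all 12 comparisons, 6 calls of single genes were gained and 0 lost without the 3 libraries. That fit called 7.07% of all tested genes for 8wk minus E16. Igf2bp1 lost its P14 call with limma-voom (22.3%) and with only the P14 groups (24.2%). Over all 12 comparisons, limma-voom gained 2 calls of single genes and lost 2. With only the groups compared, 2 were gained and 6 lost. The cause of these changes was not tested. With each library left out in turn, the number of the 7 genes called ran from 0 to 0 at E16, 1 to 1 at P14, 3 to 4 at 8wk, 1 to 3 for 8wk minus E16, 0 to 2 for 8wk minus P14 and 0 to 0 for P14 minus E16. Between ages it ran from 5 to 7 over the 6 comparisons. In these fits the share of all tested genes called moved as well. This share ran from 15.6% to 19.3% at E16, 14.9% to 22.7% at P14 and 17.8% to 34.1% at 8wk. For 8wk minus E16 the share ran from 0.247% to 4.64%, for 8wk minus P14 from 0.0206% to 1.91%, and between ages from 4.81% to 25.5%. The replicate block changed 1 other call, Arid3a at 8wk (0.60, edgeR adjusted p = 0.0413). Depth limits Lin28b in 8wk ME cells (6 to 28 counts per library) and Igf2bp1 at P14 and 8wk (5 to 23 counts) most.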
